A study of Homo sapiens with 12 samples.

Results

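The nuclear receptor superfamily was followed in HEK293T cells after knockdown of CARM1 or of a factor of, or associated with, the NuRD complex. The set was a list of 46 nuclear receptor genes, given by gene symbol and found by Ensembl identifier among the 58662 annotated genes of the count files, and each of the 46 was present in the files. A gene was taken as expressed when its level, in FPKM (counts scaled to exon length and to the library total), was over 0.5 in the mean of at least 1 group, and 31 of the 46 receptors met this. HEK293T is a transformed line derived from human embryonic kidney that carries the SV40 large T antigen. The study asked how the arginine methyltransferase CARM1 and the NuRD complex act on transcription, and compared each knockdown with cells that received a control siRNA. The 12 libraries were made from total RNA of unmodified (WT) cells grown in DMEM with serum, with 2 libraries for each of 6 siRNAs. These were siCTL (control), siCARM1, siCHD4 (the ATPase of NuRD), siHDAC2 (a histone deacetylase), siGATAD2A (a zinc finger subunit) and siKDM1A (a histone demethylase). The time after transfection was not given in the sources used here for these libraries, and nothing stated that the 2 libraries of a group came from separate cultures, so p-values measured only the spread between these libraries. In bulk RNA, fewer cells of a type and less RNA per cell cannot be told apart.

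Nuclear receptors are transcription factors that bind DNA through a zinc finger domain and, in many members, a lipid-soluble ligand through a second domain. Steroid receptors act mostly as homodimers, many others pair with a retinoid X receptor (RXR), and orphan members have no established physiological ligand. Bound receptors exchange corepressor complexes that hold histone deacetylases for coactivator complexes that hold acetyltransferases and methyltransferases, and CARM1 was first described as such a coactivator.

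The libraries held between 19308315 and 28648657 counts on genes, on the strand opposite to the sequenced first read. Levels are given as FPKM or as CPM (counts scaled to the total over the tested genes, not to length, with TMM factors that correct for differences in composition between libraries). Of the markers of HEK293 cells, 6 of 8 were over 0.5 FPKM in at least 1 group, among them VIM, KRT8 and KRT18, while NEFM and PAX2 were not. None of 4 hepatocyte and none of 4 blood cell markers was, and VWF alone of the 2 endothelial markers matched was. Of 5 markers of the breast cancer line MCF7, KRT19, GATA3 and GREB1 were. Each siRNA target was lower in both libraries of its own knockdown than in siCTL, with log2 fold changes of −2.37 for CARM1, −2.35 for HDAC2, −1.74 for GATAD2A, −2.59 for KDM1A and −0.54 for CHD4. The CHD4 count is uncertain, as 46.9% of its exon bases are shared with a gene on the same strand, whose reads count for neither.

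In siCTL cells 6 receptors were over 10 FPKM, 19 were between 1 and 10 and 6 were under 1. The estrogen-related receptor ESRRA, a regulator of mitochondrial genes, was highest at 33.2 ± 0.989 FPKM (mean ± SD, n = 2). The orphan repressor NR2F6 (EAR2) followed at 30.2 ± 0.0534 FPKM. RXRA and RXRB, the shared partners of many receptors, were at 20.8 ± 0.825 and 14.7 ± 0.331 FPKM. Next in order came NR2F2 (COUP-TFII), an orphan receptor of embryonic development, at 13.2 ± 0.209 FPKM, the clock repressor NR1D2 (REV-ERB beta) at 11.6 ± 0.194 and the glucocorticoid receptor NR3C1 at 9.55 ± 0.218. The thyroid hormone receptor THRA was at 8.67 ± 0.349 FPKM and did not stand apart from NR1H2 at 8.06 ± 0.819, which in turn overlapped PPARD at 7.51 ± 0.352. Along the whole order of 31 receptors, the libraries of 6 of the 30 neighbouring pairs overlapped.

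At the lower end, NR4A2, HNF4G and NR2E1 lay between 0.934 and 1.01 FPKM in siCTL. THRB (0.443 FPKM), NR4A3 (0.23), ESRRB (0.149) and NR0B1 (0.0543) were below 0.5 FPKM in siCTL and passed only through other groups: THRB through 3, NR4A3 through 2, and ESRRB and NR0B1 through siCHD4 alone. These 4 therefore had to be higher somewhere to be tested, and their changes are given as descriptions, without p-values. With the mean of all 12 libraries as the filter, 29 receptors passed. Nearest to the filter were ESRRB inside it, at 0.752 FPKM in siCHD4, and PGR outside it, at 0.432 in its highest group.

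The 15 receptors below the filter were the retinoid receptors RARB and RXRG, RORB, the bile acid and xenobiotic sensors NR1H4, NR1I2 and NR1I3, HNF4A, NR2E3, the estrogen receptors ESR1 and ESR2, ESRRG, the progesterone receptor PGR, NR5A1, NR5A2 and NR0B2. In 4 of them (RORB, NR1H4, NR1I2 and NR0B2) no library held over 5 counts, and in 11 none held over 35. The highest counts in any library were 15 for NR1I3, 14 each for HNF4A, ESR1 and ESR2, 12 for NR2E3, 11 for NR5A1, 32 for RXRG, 36 for ESRRG, 71 for NR5A2, 90 for RARB and 156 for PGR. RORB and NR0B2 had under 10 counts over the 12 libraries and were not fitted at all.

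A fit without the FPKM filter, over 16135 genes, called the largest share of genes in siCHD4 (43.5%), followed by siGATAD2A (28.8%), siCARM1 (24.7%), siKDM1A (22.3%) and siHDAC2 (16.8%). PGR had 48 and 61 counts in siCTL, 88 and 98 in siCHD4, 66 and 45 in siGATAD2A, 84 and 114 in siHDAC2, 156 and 106 in siCARM1 and 154 and 153 in siKDM1A. It was called higher in siCARM1 (log2 fold change 1.01 ± 0.19, adjusted p = 2.4e-05), siKDM1A (1.28), siHDAC2 (0.64) and siCHD4 (0.54). RARB, itself a classic retinoic acid target, had 33 and 41 counts in siCTL and was called higher in siHDAC2 (65 and 90 counts), siGATAD2A (76 and 73) and siCARM1 (79 and 60). In siCHD4 the calls were made on few counts. ESR1 had 1 and 0 counts in siCTL and 13 and 14 in siCHD4, a ratio of 22.8 after scaling to library totals, with an exact 95% counting interval from 3.76 to 934. HNF4A had 2 and 0 against 13 and 14, a ratio of 11.4 with an interval from 2.87 to 98.9. These intervals cover counting error only. They take in neither the spread between libraries nor the choice of these genes by their siCHD4 counts. RXRG was called higher and ESRRG lower in siCHD4, but the 2 siCHD4 libraries differed, with 32 and 12 counts for RXRG and 5 and 16 for ESRRG. NR5A1 had 4 and 3 counts in siCTL and 0 in both siCARM1 libraries, and it was called lower there.

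Among the 31 expressed receptors, 28 were called in at least 1 knockdown, against 73% of all 12830 genes tested. A gene was called where edgeR's quasi-likelihood test gave an adjusted p (Benjamini-Hochberg, over all genes tested) not above 0.05 and the fold was at least 1.2, and the 5 comparisons shared the siCTL libraries. In siCHD4 14 receptors were higher and 7 lower, against 24% and 24.9% of all genes. In siCARM1 9 were higher and 4 lower, against 14.9% and 14.5%. In siGATAD2A 10 were higher and 2 lower, against 15.7% and 18.2%. In siHDAC2 4 were higher and 3 lower, against 10.6% and 9%, and in siKDM1A 4 were higher and 5 lower, against 14.2% and 11.5%. In either direction the receptors called were 21 of 31 in siCHD4 (48.8% of all genes), 13 in siCARM1 (29.4%), 12 in siGATAD2A (33.9%), 9 in siKDM1A (25.7%) and 7 in siHDAC2 (19.6%). These counts include the 4 receptors that passed the filter only through other groups, all of whose calls were higher. Over the 27 receptors that were over 0.5 FPKM in siCTL, 11 were higher in siCHD4, 8 in siGATAD2A, 6 in siCARM1, 3 in siHDAC2 and 2 in siKDM1A. The lower counts were as above, and 24 were called in at least 1 knockdown. Shares over all genes expressed in siCTL were not computed, so the shares above are no matching background for the 27.

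The median log2 fold change of the 31 receptors was 0.17 in siCHD4, 0.13 in siCARM1, 0.05 in siGATAD2A, 0.004 in siHDAC2 and −0.03 in siKDM1A, where that of all genes lay within 0.01 of 0 in each. Over the 27 receptors it was 0.12, 0.05, 0.04, −0.03 and −0.07 in the same order. Of the 155 log2 fold changes, 41 were called higher, 21 lower and 93 not called. The 41 include all calls of THRB (2), ESRRB (3), NR4A3 (3) and NR0B1 (3), which had to be high somewhere to be tested. The share of all genes over the 5 comparisons together was not computed. NR1H3 and NR6A1 were higher in all 5 knockdowns, as were 2.28% of all genes, and no receptor was lower in all 5, as were 1.7%. On the edgeR p alone, before or after adjustment, 1 receptor, NR2F6, was lower in all 5, and DESeq2 likewise called none by p and fold together. THRA, PPARA, NR2F1, NR3C2 and NR4A1 were lower in at least 1 knockdown and higher in another, a pattern held by 9.47% of all genes. ESRRB, NR0B1, NR1H3, NR4A1 and NR4A3 changed at least 2-fold in at least 1 knockdown, as did 12.4% of all genes. As ESRRB, NR0B1 and NR4A3 were tested only because of the groups where they were high, this leaves 2 of the 27. The 12.4% was not cut in the same way. RXRA, NR2C1 and RORA were called in none by edgeR or DESeq2. Of their 15 edgeR values, 3 had an unadjusted p under 0.05 and 1, RORA in siCHD4, also an adjusted one, with a fold under 1.2.

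Of the 9 receptors that were called higher in siCHD4 by at least 1.6-fold, 4 have a single start site in the RefSeq promoter sequences. These are shown because their gene can be tied to 1 promoter. The 9 include ESRRB, NR4A3 and NR0B1, which were below 0.5 FPKM in siCTL and passed the filter through siCHD4. The share of all genes past this fold was not computed, and the fold only selects what is shown. Each run covers 250 bases before to 50 after the start on GRCh38.p14, written 5′ to 3′ on the strand of the gene. They were THRA (chr17:40062715-40063014, plus strand), NR4A3 (chr9:99821635-99821934, plus strand), NR6A1 (chr9:124771262-124771561, minus strand) and NR0B1 (chrX:30309341-30309640, minus strand). Capitals mark matches on either strand to AGGTCA (the receptor motif, a core that many but not all nuclear receptors bind), GGGCGG (the GC box) and CACGTG (the E-box). They also mark TGACG (the short motif of CREB and ATF factors) and TGACGTCA (their long motif, which contains the short one).
THRA: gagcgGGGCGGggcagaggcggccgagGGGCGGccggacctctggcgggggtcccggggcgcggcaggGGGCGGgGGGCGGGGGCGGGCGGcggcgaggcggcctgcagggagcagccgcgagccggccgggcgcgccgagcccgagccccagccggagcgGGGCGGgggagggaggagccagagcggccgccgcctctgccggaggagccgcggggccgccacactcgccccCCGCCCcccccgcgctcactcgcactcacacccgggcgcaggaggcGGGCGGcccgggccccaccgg
NR4A3: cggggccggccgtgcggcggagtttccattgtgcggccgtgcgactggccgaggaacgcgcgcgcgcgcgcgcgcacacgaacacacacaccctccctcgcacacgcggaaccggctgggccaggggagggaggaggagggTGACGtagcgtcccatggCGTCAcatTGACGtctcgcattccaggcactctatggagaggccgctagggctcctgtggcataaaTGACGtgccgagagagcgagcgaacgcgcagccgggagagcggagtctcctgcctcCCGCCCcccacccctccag
NR6A1: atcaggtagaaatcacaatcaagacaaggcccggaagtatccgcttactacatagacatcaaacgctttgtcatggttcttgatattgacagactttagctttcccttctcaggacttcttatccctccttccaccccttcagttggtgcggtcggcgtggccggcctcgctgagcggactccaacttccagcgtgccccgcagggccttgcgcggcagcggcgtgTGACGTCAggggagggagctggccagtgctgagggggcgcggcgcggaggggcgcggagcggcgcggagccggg
NR0B1: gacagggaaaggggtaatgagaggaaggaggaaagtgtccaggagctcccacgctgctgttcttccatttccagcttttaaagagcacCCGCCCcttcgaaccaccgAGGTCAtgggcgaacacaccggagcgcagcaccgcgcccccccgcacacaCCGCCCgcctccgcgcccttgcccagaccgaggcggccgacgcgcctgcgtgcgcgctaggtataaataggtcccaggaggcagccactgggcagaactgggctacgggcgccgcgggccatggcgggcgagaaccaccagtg

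The THRA promoter held 9 GC boxes, counting those that overlap, and none of the other motifs. That of NR4A3, an immediate early gene, held 4 short CREB motifs and 1 GC box, and that of NR6A1 held the long CREB motif, which also gives 2 matches to the short one. NR0B1 had 1 receptor motif and 2 GC boxes. The E-box was in none of the 4. Of all 35116 promoters in the table, 13.8% held the receptor motif, 24.6% the short CREB motif, 1.85% the long one, 45% the GC box and 7.26% the E-box. Of the 96 promoters of the 41 receptors with a sequence, 16.7% held the receptor motif, 21.9% the short CREB motif, 2.08% the long one, 51.0% the GC box and 9.38% the E-box. These shares describe the letters in the window.

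Among the steroid receptors, the glucocorticoid receptor NR3C1 and the mineralocorticoid receptor NR3C2 were expressed. NR3C1 was higher in siCARM1 (0.46 ± 0.05 on the log2 scale) and siGATAD2A (0.28 ± 0.05), and its values in the other 3 knockdowns were between −0.01 and 0.11. NR3C2 was at 35.8 and 38.3 CPM in the siCTL libraries, 18.9 and 19.5 in siCHD4, 39.7 and 36.2 in siGATAD2A, 40.1 and 38.2 in siHDAC2, 47.9 and 47.2 in siCARM1 and 30.6 and 35.1 in siKDM1A. Both siCHD4 libraries were below every other library, while the siCARM1 libraries were above the rest. The log2 fold change of NR3C2 was −0.95 ± 0.08, adjusted p = 1.1e-11 in siCHD4 and 0.36 ± 0.07, adjusted p = 1.4e-04 in siCARM1, and the difference between these knockdowns was 1.30 ± 0.08, adjusted p = 3e-15. NR3C2 lies at chr4:148999913-149365850, minus strand (GRCh37, as for each position that follows). Without siCTL replicate 2 NR3C1 in siGATAD2A was 0.26, just under the fold required, and without siKDM1A replicate 2 NR3C2 was called lower in siKDM1A (−0.28, against −0.17 with it).

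The estrogen-related receptors are orphan relatives of ESR1 that bind DNA without estrogen. ESRRA was lower in siHDAC2 (−0.33 ± 0.05, adjusted p = 2e-05), and its other values were between −0.24 and 0.17. The lowest of these, in siCARM1, was called without siCARM1 replicate 1 (−0.31) or siCTL replicate 1 (−0.27). ESRRB (chr14:76777055-76968180, plus strand), known as a pluripotency factor, was scarce: 14 and 24 counts in siCTL, 129 and 94 in siCHD4, 40 and 54 in siGATAD2A, 27 and 45 in siHDAC2, 45 and 32 in siCARM1 and 71 and 67 in siKDM1A. In CPM, the siCTL libraries were at 0.766 and 1.10, the siCHD4 libraries at 5.70 and 4.0 and the siKDM1A libraries at 3.24 and 2.81. Scaled to library totals, every library of each knockdown was above both siCTL libraries. The fitted log2 difference of ESRRB from siCTL was 2.35 ± 0.27 in siCHD4, the group through which it passed the filter, 1.67 ± 0.30 in siKDM1A and 1.07 ± 0.32 in siGATAD2A. The last was 0.85 without siCTL replicate 1 and 0.78 without siGATAD2A replicate 2.

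Of the retinoid X receptors, RXRB was called in 1 knockdown and RXRA in none. RXRA ranged from −0.10 to 0.09. RXRB was at 59.5 and 61.7 CPM in siCTL and 31.7 and 33.5 in siCHD4, a log2 fold change of −0.90 ± 0.06, adjusted p = 7.7e-14, and its siCHD4 libraries were below the 10 others. In the other knockdowns RXRB lay between 0.00 and 0.25, and the highest of these, in siHDAC2, was called without siCTL replicate 2 (0.28). It shares 9.26% of its exon bases with SLC39A7 on the opposite strand.

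The thyroid hormone receptor THRA (chr17:38214543-38250120, plus strand) moved in opposite directions in 2 knockdowns of NuRD subunits. THRA was at 65.2 and 69.4 CPM in the siCTL libraries, 112 and 119 in siCHD4, 35.3 and 32.4 in siGATAD2A, 65.5 and 66.3 in siHDAC2, 80.8 and 72.7 in siCARM1 and 64.2 and 57.9 in siKDM1A. The siCHD4 libraries were the highest of the 12, the siGATAD2A libraries the lowest, and neither overlapped siCTL. The log2 fold change was 0.78 ± 0.06, adjusted p = 1.6e-12 in siCHD4 and −0.99 ± 0.07, adjusted p = 2.2e-13 in siGATAD2A, and the difference between the 2 knockdowns was 1.77 ± 0.06, adjusted p = 1.8e-20. THRA shares 6.45% of its exon bases with NR1D1 on the opposite strand, and the call and its direction held with counts taken without regard to strand. THRB, the second thyroid hormone receptor, was at 5.91 and 4.37 CPM in siCTL and 9.87 and 8.35 in siCARM1, a log2 difference of 0.85 ± 0.16 in a group through which it passed the filter. In siHDAC2, another such group, the difference was 0.46 ± 0.16. It was 0.24 without siCTL replicate 2, 0.35 without siHDAC2 replicate 1 and 0.45 with DESeq2.

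The retinoic acid receptors RARA and RARG moved apart in siCHD4. RARA rose from 29.7 and 27.0 CPM to 42.9 and 44.8 (0.63 ± 0.08, adjusted p = 3.9e-08), and RARG fell from 27.6 and 28.5 to 22.4 and 21.5 (−0.35 ± 0.09, adjusted p = 0.0012). RARA was also higher in siGATAD2A (0.36 ± 0.08). RARG was not called there (−0.26), though it passed without siCTL replicate 1 (−0.28) or without siGATAD2A replicate 1 (−0.33). The vitamin D receptor VDR was higher in siCHD4 (0.48 ± 0.11) and between −0.24 and 0.28 elsewhere. Without siGATAD2A replicate 1 VDR was called lower in siGATAD2A (−0.38).

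Among the lipid sensors, the liver X receptor NR1H3 (LXR alpha; chr11:47269851-47290584, plus strand), an oxysterol sensor, was higher in every knockdown. NR1H3 was at 8.09 and 9.11 CPM in the siCTL libraries, 13.8 and 14.1 in siCHD4, 18.8 and 18.4 in siGATAD2A, 13.2 and 13.1 in siHDAC2, 15.2 and 14.6 in siCARM1 and 12.8 and 11.5 in siKDM1A. Each of the 10 knockdown libraries was above both siCTL libraries. The log2 fold change was largest in siGATAD2A (1.11 ± 0.11, adjusted p = 4.3e-10), followed by siCARM1 (0.79 ± 0.11), siCHD4 (0.69 ± 0.11), siHDAC2 (0.61 ± 0.11) and siKDM1A (0.49 ± 0.11, adjusted p = 7.8e-04). siGATAD2A was above each of the other 4, by 0.32 over siCARM1 to 0.61 over siKDM1A. Its paralog NR1H2 (LXR beta), which shares 22.1% of its exon bases with NAPSA on the opposite strand, was lower in siCARM1 (−0.31 ± 0.07, adjusted p = 9.4e-04). That call was lost without siCTL replicate 2 (−0.19), and without the same library NR1H2 was called higher in siCHD4 (0.33, against 0.22 with it).

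The peroxisome proliferator-activated receptors sense fatty acids. PPARA was at 31.4 and 35.9 CPM in the siCTL libraries, 69.6 and 64.3 in siCHD4, 41.7 and 41.4 in siGATAD2A, 34.9 and 38.3 in siHDAC2, 30.8 and 32.7 in siCARM1 and 28.0 and 26.5 in siKDM1A. PPARA (chr22:46546424-46639652, plus strand) was thus highest in both siCHD4 libraries and lowest in both siKDM1A libraries. It rose by 0.99 ± 0.07, adjusted p = 2.2e-13 in siCHD4 and 0.30 ± 0.07, adjusted p = 0.0011 in siGATAD2A, and was −0.31 ± 0.08, adjusted p = 0.0017 in siKDM1A. The smaller changes rested on the siCTL libraries, since without siCTL replicate 1 the siGATAD2A value was 0.21 and without replicate 2 the siKDM1A value was −0.21, and neither was called. PPARG, the adipogenic receptor, was higher in siCHD4 (0.47 ± 0.10) and siCARM1 (0.35 ± 0.10). PPARD was lower in siCARM1 (−0.28 ± 0.07). The PPARG call in siCARM1 was lost without siCARM1 replicate 2 (0.25) or siCTL replicate 2 (0.29), and that of PPARD without siCTL replicate 1 (−0.24).

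The REV-ERB receptors NR1D1 and NR1D2 repress clock genes, and RORA competes with them as an activator. NR1D2 was higher in siGATAD2A (0.36 ± 0.06, adjusted p = 5.8e-06) and siCHD4 (0.29 ± 0.06), and in siCARM1 it was 0.25, under the fold required. Without siCHD4 replicate 2 NR1D2 was 0.24 in siCHD4, and with no FPKM filter 0.26, and was not called, and without siCTL replicate 2 it was called in siCARM1 (0.27), as it was without siCARM1 replicate 1 (0.33). NR1D1 was at 9.52 and 11.6 CPM in siCTL and 12.5 and 13.2 in siCHD4, a call (0.28 ± 0.12, adjusted p = 0.048) that was lost without siCTL replicate 1 (0.15), without siCHD4 replicate 1 (0.31) or 2 (0.23), with DESeq2, with unstranded counts and with no FPKM filter. RORA lay between −0.24 and 0.19.

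Among the NR2 orphan receptors, the COUP transcription factors NR2F1, NR2F2 and NR2F6, which mostly repress, held most of the calls. NR2F1 was at 25.7 and 26.3 CPM in the siCTL libraries, 21.2 and 20.7 in siCHD4, 34.3 and 35.6 in siGATAD2A, 37.7 and 37.5 in siHDAC2, 33.4 and 29.2 in siCARM1 and 25.0 and 24.3 in siKDM1A. NR2F1 (chr5:92918928-92930317, plus strand) was lowest in both siCHD4 libraries and highest in both siHDAC2 libraries. It was 0.53 ± 0.08, adjusted p = 2.2e-06 in siHDAC2, 0.43 ± 0.08, adjusted p = 2.4e-05 in siGATAD2A, 0.27 ± 0.08, adjusted p = 0.0043 in siCARM1 and −0.31 ± 0.08, adjusted p = 0.0013 in siCHD4. The difference between siHDAC2 and siCHD4 was 0.84 ± 0.08, adjusted p = 4.8e-11. The siCARM1 call was lost without siCARM1 replicate 1 (0.17), and without siCTL replicate 1 (0.26), with unstranded counts (0.23) and with no FPKM filter (0.26) its value was under the fold required.

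NR2F2 was at 91.6 and 90.0 CPM in the siCTL libraries, 68.1 and 72.1 in siCHD4, 93.5 and 100.4 in siGATAD2A, 85.7 and 81.3 in siHDAC2, 76.3 and 72.2 in siCARM1 and 63.3 and 64.3 in siKDM1A. NR2F2 (chr15:96869167-96883492, plus strand) was below both siCTL libraries in each library of siKDM1A, siCHD4, siCARM1 and siHDAC2, though in siHDAC2 it was not called. It was −0.51 ± 0.06, adjusted p = 1.1e-08 in siKDM1A, −0.37 ± 0.06 in siCHD4 and −0.29 ± 0.05 in siCARM1, and the last fell to −0.25, under the fold required, without siCARM1 replicate 2. NR2F6 was at 84.6 and 85.2 CPM in the siCTL libraries, 66.7 and 64.7 in siCHD4, 75.2 and 70.6 in siGATAD2A, 54.8 and 65.8 in siHDAC2, 68.8 and 67.4 in siCARM1 and 73.5 and 73.9 in siKDM1A. NR2F6 (chr19:17342692-17356728, minus strand) was below siCTL in each of the 10 knockdown libraries. It was called in siHDAC2 (−0.49 ± 0.06, adjusted p = 4.3e-07), siCHD4 (−0.37 ± 0.06) and siCARM1 (−0.32 ± 0.06), while in siGATAD2A (−0.22) and siKDM1A (−0.20) it did not reach the fold required. Without siGATAD2A replicate 1 it did so in siGATAD2A (−0.27).

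The testicular receptor NR2C2 was lower in siCHD4 (−0.38 ± 0.06) and siKDM1A (−0.30 ± 0.06). It shares 60.5% of its exon bases with MRPS25 on the opposite strand, and with counts taken without regard to strand both changes were under the fold required (−0.19 and −0.20). In siCARM1 NR2C2 was −0.25 and was called without siCARM1 replicate 2 (−0.33). NR2C1, its paralog, was between −0.08 and 0.12. NR2E1 (TLX), a factor of neural stem cells, was at 3.72 and 3.73 CPM in siCTL and 5.65 and 6.94 in siCHD4 (0.76 ± 0.18, adjusted p = 4.7e-04). HNF4G was called lower in siGATAD2A (−0.41 ± 0.17, adjusted p = 0.049), and this was lost without any 1 of the 4 libraries (−0.35 to −0.47), with DESeq2, with unstranded counts, with the 2 groups alone and with the replicate block (adjusted p = 0.051).

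The NR4A receptors are immediate early genes that act without a known ligand. NR4A1 was at 38.0 and 39.4 CPM in the siCTL libraries, 185 and 177 in siCHD4, 52.9 and 51.4 in siGATAD2A, 20.3 and 21.9 in siHDAC2, 40.0 and 34.8 in siCARM1 and 33.1 and 28.5 in siKDM1A. NR4A1 (NUR77; chr12:52416616-52453291, plus strand) was in both siCHD4 libraries far above the 10 others, and both siHDAC2 libraries were the lowest. The log2 fold change was 2.22 ± 0.07, adjusted p = 5.2e-23 in siCHD4, 0.43 ± 0.07, adjusted p = 6.5e-06 in siGATAD2A, −0.87 ± 0.08, adjusted p = 5.3e-10 in siHDAC2 and −0.33 ± 0.08, adjusted p = 6.5e-04 in siKDM1A. The difference between siCHD4 and siHDAC2 was 3.09 ± 0.07, adjusted p = 5.4e-26. Without siKDM1A replicate 2 the siKDM1A value was −0.23 and was not called.

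NR4A3 (NOR1; chr9:102584137-102629173, plus strand), whose promoter with 4 short CREB motifs is printed above, had 25 and 37 counts in siCTL, 172 and 155 in siCHD4, 84 and 82 in siGATAD2A, 42 and 53 in siHDAC2, 63 and 82 in siCARM1 and 54 and 49 in siKDM1A. The siCHD4 libraries (7.60 and 6.60 CPM) were above the 10 others, and the siGATAD2A libraries (3.42 and 3.63) were above siCTL (1.37 and 1.70). The log2 difference from siCTL was 2.19 ± 0.23 in siCHD4 and 1.18 ± 0.25 in siGATAD2A, the groups through which NR4A3 passed the filter. In siCARM1 it was 1.0 ± 0.26, with the 2 libraries apart (2.40 and 3.91 CPM), and 0.63 without siCARM1 replicate 2. NR4A2 (NURR1), a factor of dopaminergic neurons, was −0.02 in siCHD4, and was not called there. NR4A2 was called lower in siKDM1A (−0.60 ± 0.22), which was lost without siCTL replicate 1 (−0.43) or siKDM1A replicate 2 (−0.33) and with DESeq2 (−0.61), and without siHDAC2 replicate 1 it was called lower in siHDAC2 (−0.81).

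NR6A1 was at 33.0 and 33.5 CPM in the siCTL libraries, 67.7 and 65.2 in siCHD4, 52.6 and 53.3 in siGATAD2A, 40.1 and 40.1 in siHDAC2, 54.7 and 50.7 in siCARM1 and 46.6 and 42.5 in siKDM1A. NR6A1 (germ cell nuclear factor; chr9:127279554-127533590, minus strand), which silences pluripotency genes on differentiation, was above both siCTL libraries in each of the 10 knockdown libraries. It rose by 1.0 ± 0.06, adjusted p = 2e-14 in siCHD4, 0.67 ± 0.07 in siCARM1, 0.67 ± 0.07 in siGATAD2A, 0.42 ± 0.07 in siKDM1A and 0.27 ± 0.07, adjusted p = 0.0024 in siHDAC2. siCHD4 was above the other 4, by 0.33 over siGATAD2A to 0.73 over siHDAC2. The siHDAC2 value was 0.26, under the fold required, without siCTL replicate 1, with unstranded counts and with no FPKM filter.

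NR0B1 (DAX1; chrX:30322323-30327507, minus strand) lacks a classic DNA-binding domain and represses other receptors. It had 0 and 5 counts in siCTL, 116 and 124 in siCHD4, 8 and 6 in siGATAD2A, 3 and 5 in siHDAC2, 10 and 15 in siCARM1 and 11 and 15 in siKDM1A. The siCHD4 libraries, at 5.12 and 5.28 CPM, were above the 10 others, none of which reached 1 CPM. The ratio of counts in siCHD4 to siCTL, scaled to library totals, was 40.5. The fitted log2 difference was 5.32 ± 0.43, in the group through which NR0B1 passed the filter. Without siCTL replicate 1 this was 4.47 and without replicate 2, which leaves siCTL at 0, 9.89. The differences in siKDM1A and siCARM1 were 2.14 ± 0.70 and 2.04 ± 0.71. They were 1.28 and 1.19 without siCTL replicate 1, and 1.96 and 1.57 without replicate 2 of the knockdown. Without siCTL replicate 2 the siGATAD2A difference was 5.78, a fit against a control at 0.

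The knockdowns were also compared with each other in the same fit, as a call in 1 knockdown and not in another shows no difference by itself. The receptors that differed were 20 of 31 between siCARM1 and siCHD4 (47.7% of all genes), 21 between siCHD4 and siHDAC2 (48.8%), 21 between siCHD4 and siGATAD2A (44.8%) and 19 between siCHD4 and siKDM1A (47.7%). The counts of all pairs include THRB, NR4A3, ESRRB and NR0B1, which passed the filter only through groups other than siCTL. NR4A3, ESRRB and NR0B1 differed in every pair with siCHD4, a group through which they passed, so the filter favoured those calls. The pairs were not counted without these receptors. Pairs without siCHD4 differed in fewer receptors. There were 9 between siCARM1 and siHDAC2 (19.3%), 13 between siCARM1 and siGATAD2A (33.8%), 13 between siCARM1 and siKDM1A (21%), 8 between siHDAC2 and siGATAD2A (29.5%), 10 between siHDAC2 and siKDM1A (14.3%) and 14 between siGATAD2A and siKDM1A (32.1%). Among the receptors over 0.5 FPKM in siCTL, NR4A1 differed in all 10 pairs, THRA in 8, and PPARA, NR3C2, RARA and VDR in 7 each. The share of all genes that differed in as many pairs was not computed.

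Coactivators and corepressors of the receptors were counted on lists of 22 and 18 genes, each of which was tested in full. The counts of these and the following lists are to be read against the shares of all genes called lower and higher, which were 24.9% and 24% in siCHD4, 14.5% and 14.9% in siCARM1, 9% and 10.6% in siHDAC2, 18.2% and 15.7% in siGATAD2A and 11.5% and 14.2% in siKDM1A. In siCHD4 3 coactivators were lower and 4 higher, in siGATAD2A 3 and 3, in siKDM1A 3 and 2, and in siHDAC2 1 was higher. In siCARM1 1 was higher, and the 1 that was lower was CARM1, the siRNA target. In siCHD4 these were 13.6% and 18.2% of the list, both below the shares of all genes. The coactivator PPARGC1A (PGC-1 alpha), a partner of PPARs and ESRRA, was lower in siCHD4 (−0.68 ± 0.14) and siKDM1A (−0.63 ± 0.14). The acetyltransferase KAT2B (PCAF) was lower in the same 2 knockdowns, with values of −1.23 and −0.38, and the second call was lost without siCTL replicate 1 (−0.23). CITED1, from 5 and 12 counts in siCTL, was higher in siKDM1A (35 and 46 counts) and siCHD4 (35 and 33), but it shares 38.6% of its exon bases with a gene on the same strand. CARM1 was at the fold minimum in siKDM1A (0.26), and the call was lost under 8 alternatives, among them DESeq2, RLE size factors, unstranded counts and leaving out siKDM1A replicate 1 (0.21) or siCTL replicate 2 (0.25).

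Among the corepressors, 2 were lower and 5 higher in siGATAD2A, 3 and 3 in siCARM1, 2 and 1 in siCHD4, 1 and 3 in siHDAC2 and 2 and 2 in siKDM1A, where 1 of the 2 lower was KDM1A, the siRNA target. SPEN (SHARP), which recruits histone deacetylases to receptors, was lower in all 5, from −0.28 ± 0.04 in siHDAC2 to −1.06 ± 0.04 in siCHD4. The smallest of these was −0.26, under the fold required, without siCTL replicate 1. HR (hairless), a corepressor of thyroid hormone and vitamin D receptors, had 16 and 15 counts in siCTL and 282 and 315 in siCHD4 (4.05 ± 0.22, adjusted p = 1.7e-16), and was higher in siCARM1, siKDM1A and siHDAC2 as well (1.73, 1.44 and 1.2), the last of which was lost without siCTL replicate 2 (1.03). GPS2, a subunit of the NCoR complex that shares 44.7% of its exon bases with a gene on the same strand, was lower in siCARM1 (−0.71 ± 0.22), which was lost without siCARM1 replicate 1 (−0.66).

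Known target genes of the receptors gave mixed directions. Of 12 tested genes of retinoic acid signalling and metabolism, 6 were lower and 4 higher in siCHD4, 6 and 2 in siCARM1, 7 and 1 in siHDAC2, 4 and 3 in siGATAD2A and 2 and 1 in siKDM1A, with medians from −0.42 in siCARM1 to −0.13 in siKDM1A. STRA6, the retinol transporter, was lower in siCHD4 (−2.37 ± 0.15, adjusted p = 1.1e-14) and siCARM1 (−1.21 ± 0.13). The retinoic acid synthesising ALDH1A3 was lower in siCHD4 (−1.42 ± 0.10), siGATAD2A (−1.09 ± 0.10), siCARM1 (−0.54) and siHDAC2 (−0.27). It shares 32.1% of its exon bases with an antisense RNA, and with unstranded counts only the first 2 were called. The siHDAC2 call was also lost without siHDAC2 replicate 2 (−0.15) or without siCTL replicate 1 (−0.28) or 2 (−0.27). CRABP2, which carries retinoic acid to its receptors, was higher in siCHD4 (1.2 ± 0.07) and siCARM1 (0.36 ± 0.07) and lower in siGATAD2A (−1.29 ± 0.08). CRABP2 was also called lower in siHDAC2. That call was lost without siCTL replicate 2 (−0.21) or siHDAC2 replicate 1 (−0.21) and with an FPKM filter of 1 (−0.26). CYP26A1, which degrades retinoic acid and shares 25.3% of its exon bases with a noncoding gene on the same strand, rose from 15 and 31 counts in siCTL to 72 and 60 in siGATAD2A (1.28 ± 0.28) and 62 and 59 in siCHD4 (1.19 ± 0.28).

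Of 7 tested targets of liver X and farnesoid X receptors, 5 were higher and 1 lower in siGATAD2A, where NR1H3 was highest, 3 and 4 in siCHD4, 1 and 1 in siKDM1A and 1 and 2 in siCARM1, and in siHDAC2 3 were higher. The cholesterol transporter ABCG1 had 34 and 34 counts in siCTL, 152 and 143 in siGATAD2A (1.87 ± 0.21), 106 and 149 in siHDAC2 (1.69 ± 0.21) and 22 and 13 in siCHD4 (−1.16 ± 0.31). Its smaller changes were called in siKDM1A (0.72) and siCARM1 (−0.93). The siCHD4 call was lost without siCHD4 replicate 2 (−0.81), that in siCARM1 without siCARM1 replicate 1 (−0.90) or siCTL replicate 1 (−0.81), and that in siKDM1A without siCTL replicate 2 (0.59) or siKDM1A replicate 1 (0.67) and with DESeq2. SREBF1, the master regulator of lipogenesis, was higher in siGATAD2A (0.90 ± 0.06), siHDAC2 (0.52 ± 0.07) and siCHD4 (0.28), the last of which did not reach the fold of 1.2 without siCHD4 replicate 1 (0.26) or siCTL replicate 1 (0.22) or with no FPKM filter. APOE was higher in siCHD4 (2.05 ± 0.13), siCARM1 (0.81) and siGATAD2A (0.62), and SMPDL3A was lower in the same 3 (−1.05, −0.42 and −0.74), though its siCARM1 call was lost without siCARM1 replicate 1 (−0.28) or siCTL replicate 2 (−0.21) and with DESeq2.

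Of 11 tested PPAR targets, 5 were lower in siGATAD2A and 3 in siCARM1, with none called higher (2 in siCARM1 and 1 in siGATAD2A were so by adjusted p alone), and 2 were higher and 1 lower in each of siCHD4 and siKDM1A. In siHDAC2 edgeR called 0, as 4 genes passed on the adjusted p alone but not on the fold, 5 were under 0.05 before adjustment, and DESeq2 called 0. In siGATAD2A the mitochondrial enzyme of fatty acid oxidation CPT2 (−0.68 ± 0.07) and the lipid droplet protein PLIN2 (−0.62 ± 0.14) were lower, and PPARA was higher there. PLIN2 was also lower in siCARM1 (−0.71 ± 0.14), where PPARA was not called (−0.09). FABP3 had 24 and 23 counts in siCTL, 5 and 14 in siGATAD2A and 62 and 52 in siCHD4, and its siGATAD2A value of −1.53 was 0.014 with unstranded counts. That call was also lost without siGATAD2A replicate 1 (−0.92). FABP3 was lower in siCARM1 as well (−1.46), a call lost with unstranded counts (−0.36) or without siCARM1 replicate 1 (−1.16). Its call of higher in siKDM1A was lost with unstranded counts (0.46) and with DESeq2 (0.81). Of 17 tested targets of estrogen-related receptors, 2 to 4 were higher and 1 or 2 lower in each knockdown, and the largest share, 23.5% higher in siCHD4, was near that of all genes. CYCS (cytochrome c) was higher in all 5, from 0.38 in siHDAC2 to 0.90 in siCHD4, and VEGFA likewise, from 0.36 to 1.4. MAOB was lower in siGATAD2A (−1.36 ± 0.19) and CKB in siGATAD2A (−0.87 ± 0.05), siCARM1 (−0.67) and siKDM1A (−0.39).

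Of 13 tested targets of steroid receptors and VDR, 6 were higher in siCARM1 with none called lower (1 was so by adjusted p alone), and higher and lower genes numbered 5 and 4 in siCHD4, 5 and 1 in siKDM1A, 3 and 2 in siHDAC2 and 3 and 3 in siGATAD2A. CYP24A1, the vitamin D catabolic enzyme and a classic VDR target, rose from 7 and 13 counts in siCTL to 206 and 214 in siCHD4 (4.17 ± 0.26, adjusted p = 1.1e-14), 88 and 71 in siCARM1 (2.74 ± 0.31) and 54 and 38 in siKDM1A (2.0 ± 0.35). In siHDAC2, with 4 and 3 counts, it was called lower (−1.68), which was lost without siCTL replicate 2 (−1.31) or siHDAC2 replicate 2 (−1.26) and with the 2 groups alone. GREB1, an estrogen-induced gene in breast cells, was higher in siCHD4 (2.21 ± 0.09), and also in siCARM1 (0.39 ± 0.10) and siHDAC2. The siHDAC2 call of GREB1 was lost without siCTL replicate 2 (0.30) or siHDAC2 replicate 2 (0.17). ZBTB16 (PLZF), a glucocorticoid and androgen target, was higher in siGATAD2A (1.17), siHDAC2 (0.90), siCARM1 (0.88) and siKDM1A (0.86). XBP1 was higher in all 5, from 0.33 in siKDM1A to 1.25 in siCHD4.

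Of the 20 tested clock genes, which include NR1D1, NR1D2 and RORA, 6 were lower and 5 higher in siCHD4, 5 and 2 in siCARM1, 5 and 4 in siKDM1A, 3 and 1 in siHDAC2 and 1 and 5 in siGATAD2A. DBP, a clock output factor, was at 37.7 and 38.5 CPM in siCTL and 10.7 and 9.20 in siCHD4 (−1.94 ± 0.09, adjusted p = 1.9e-17), and was lower in all 5 knockdowns, with the smallest change in siHDAC2 (−0.42). Its relative TEF was lower in 4, from −0.40 in siCARM1 to −1.25 in siCHD4, and was 0.17 in siGATAD2A. PER3 was lower in siCHD4 (−1.08 ± 0.10), siKDM1A (−0.49) and siCARM1 (−0.34). BHLHE41 (DEC2) was higher in siGATAD2A (0.87 ± 0.11) and siHDAC2 (0.36) and lower in siCHD4 (−0.50). The siHDAC2 call of BHLHE41 was lost without either siCTL library (0.35 and 0.37) or siHDAC2 replicate 2 (0.31) and with DESeq2, and the siCHD4 call without siCHD4 replicate 2 (−0.34).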

How the data were processed

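RNA-seq gene counts of 12 HEK293T libraries (2 for each of 6 siRNAs) were analysed. The counts were deposited by the authors as STAR gene count files, with the read pairs of each gene on either strand and on both together. The submitters' processing notes list CASAVA 1.4, STAR 2.7.10 and hg19, while the study's methods describe other tools for RNA-seq; the annotation release was not given in the sources used here. The libraries were made with a directional kit, so the reverse-strand counts were used, and a second gene overlapping on the opposite strand was thereby mostly kept apart, although 7.93 to 8.40% of stranded counts fell on the other strand. Paired-end sequencing was done at RiboBio or Amogene, and which library was sequenced where was not given in the sources used here, so a batch could not be fitted. Read pairs with no gene (unmapped, multimapping, outside genes or ambiguous) were 33.7 to 37.0% of each library and were left out. Of 60660 identifiers, 44 second copies of genes shared by X and Y were left out and 58662 matched the GENCODE v44 annotation on GRCh37, which gave symbols, positions and exon lengths. Library totals on genes were 19308315 to 28648657 (median 24292682).

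FPKM were computed from exon lengths and library totals. The 12830 coding genes over 0.5 FPKM in at least 1 group mean were fitted with edgeR 4.0.16 (R 4.3.3), using TMM scaling, 6 group means and the quasi-likelihood test, and a gene was called where the adjusted p (Benjamini-Hochberg) was not above 0.05 and the fold at least 1.2. The common biological coefficient of variation was 3.47%. All adjusted p-values of differential expression are from this test unless DESeq2 1.42.0 is named. Values after ± are standard errors for log2 fold changes. With 2 libraries against 2, an exact two-sided permutation test of a single gene cannot go below p = 0.333, so none is given. Alternatives were DESeq2, RLE size factors, other FPKM filters, no fold minimum, the 2 compared groups alone, a replicate block, each library left out in turn and counts without regard to strand. The alternatives for the pairs of knockdowns and the lists were added after the data were seen. In simulated siCHD4 data over 12830 genes, edgeR recovered 95 of 100 genes changed 2-fold and 88 of 100 changed 1.5-fold, and called 5 unchanged genes. The simulation changed only these genes, alike in every knockdown, and gave every gene the common coefficient of variation. In the data 48.8% of genes were called in siCHD4, so these rates do not carry over to its calls.

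The receptors and the 8 lists of cofactors and targets were chosen with earlier results of these data known. Library values were given for receptors called in at least 3 knockdowns, in both directions or by at least 2-fold, and up to 4 genes were named from each list by size of change, of which 1 is not reported here. Promoters came from RefSeq on GRCh38.p14; those of VDR, HNF4G, NR2F6, NR4A2 and NR0B2 were not used here. Figures were drawn with matplotlib 3.10.9.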

Additional observations from a re-analysis of the deposited data

Results flagged for a closer look

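RXRB had a signal in the counts of the opposite strand, which the comparisons did not use. In siCHD4 it had 127 and 126 counts on that strand, against 38 and 50 in siCTL, or 5.15 and 4.94 CPM against 1.97 and 2.17. On its own strand RXRB was lower in siCHD4. Its exon bases overlap those of SLC39A7 on the opposite strand by 9.26%, and the part of that gene in these counts was not tested. It was picked out because both siCHD4 libraries held at least 20 opposite-strand counts and over 2 times the highest siCTL library.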

How the results depend on the processing

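Of 1995 values of receptor fold changes under the alternatives, 1913 kept their direction and their side of the threshold, 47 lost a call, 35 gained one and 0 changed sign as a called value. For the genes of the lists, 1968 of 2045 did so, 60 lost a call, 16 gained one and 1 reversed, FABP3 in siGATAD2A, at 0.014 with counts taken without regard to strand. The count of receptors lower in siGATAD2A (2) was 1 with DESeq2, 1 with the 2 compared groups alone, 5 with no fold minimum, and 1 to 4 when each library was left out in turn; the cause was not tested. With the replicate number as a block it was 1, since HNF4G was lost, and the block moved no other count of receptors by over 1.5 times. Nothing in the labels states that the replicate numbers pair libraries across groups. The other counts against siCTL stayed within 1.5 times under every alternative run. Over the 10 pairs of knockdowns, the 148 differences among receptors became 135 to 196 under the alternatives. Depth limits the 15 receptors below the filter and NR0B1, ESRRB and NR4A3, whose siCTL counts were few.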
